A study of Mus musculus with 14 samples.

Results

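The regions described here carried histone H3 acetylated at lysine 27 (H3K27ac) in Th1 cells of both genotypes. Their midpoints lay away from the ends of protein-coding genes, and they had no called peak of ETS1 or CTCF in wild-type cells. They were chosen by merging the 4 H3K27ac peak lists where peaks shared at least 1 bp and keeping the merged regions that held a peak in all 4 libraries. Of these, the regions kept had a midpoint more than 2 kb from both ends of every RefSeq protein-coding gene (GRCm38) and overlapped no peak of any wild-type ETS1 or CTCF library. Only the midpoint was tested, so a long region called distal here could still cover a gene end. The rule found 3059 regions. They made up 19.1% of the 16043 regions called in all 4 libraries, 38.5% of the 7948 distal ones among these, and were drawn from 36466 merged H3K27ac regions in all. Because H3K27ac, ETS1 and CTCF peaks chose them, their presence in every H3K27ac list and their lack of wild-type ETS1 and CTCF peaks are the rule and not a result.

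H3K27ac is deposited by the acetyltransferases p300 and CBP and marks active promoters and enhancers, the stretches of DNA that raise transcription of a gene from a distance. ETS1 is a transcription factor of lymphocytes that binds a GGAA core and occupies many T cell enhancers and promoters. CTCF is a zinc-finger protein that, with cohesin, anchors chromatin loops and domain boundaries. An enhancer can also be occupied by other factors, among them RUNX, AP-1, STAT, NFAT and T-box proteins, none of which was profiled in the libraries used here.

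Mouse spleen gave the naive CD4+ T cells, which were cultured for 6 days on plate-bound anti-CD3 with soluble anti-CD28, IL-2 at 1 ng/mL and IL-12 at 10 ng/mL, a culture that turns them into interferon-gamma-producing Th1 cells. All groups shared this treatment. Wild-type (WT) libraries came from C57BL/6J mice and knockout (KO) libraries from the strain labelled C57BL/6J-Ets1-SE-KO, and the labels give neither the ages nor the coordinates of the deletion. CUT&RUN, which cuts and releases the DNA beside an antibody bound in nuclei, gave 2 libraries per genotype for H3K27ac, ETS1 and CTCF and 1 per genotype for the IgG control. By their titles the 2 WT libraries of an antibody are technical replicates of 1 biological sample and the 2 KO libraries are biological replicates. The p-values below come from relabelling these libraries. They do not measure the spread between libraries, which is partly technical.

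The deposited lists hold peaks and no read counts, so sequencing depth is unknown. The H3K27ac lists held 24711 and 24581 peaks in WT against 26465 and 28647 in KO, and the IgG lists 2 and 285. ETS1 differed most within a genotype, where WT had 14013 and 23419 peaks and KO 40705 and 9344, so that KO replicate 1 stood apart. The labels were checked beside Ets1, where 8 H3K27ac regions between chr9:32906098 and chr9:32943055 (GRCm38), downstream of the gene, covered 25.9 and 24.2 kb in the WT libraries and had no peak in either KO library. No region there could be chosen, since the rule asks for a KO peak. As a check of the cell type, all 10 T cell genes listed had an H3K27ac region called in all 4 libraries, against 1 of 5 B cell genes, 1 of 5 myeloid genes, 1 of 2 CD8 T cell genes, 1 of 3 NK genes, 1 of 3 erythroid genes and 0 of 4 genes of non-haematopoietic cells (Alb, Col1a1, Epcam and Cdh5). Among the chosen regions, 0 took their name from a B cell, CD8 T cell, NK, erythroid or non-haematopoietic gene of these lists and 1 from a myeloid gene, Cebpb. Each list comes from a bulk population, in which fewer cells carrying a mark and less of the mark per cell cannot be told apart.

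No genome sequence was used, so the letters of most regions are not shown. Where a region overlapped a RefSeq start window or held a microRNA gene, the RefSeq sequence (GRCm38.p6) could be read. A start window ran from 250 bases before to 50 bases after a transcript start. Such windows were rare: 78 of the 3059 regions (2.55%) overlapped one, in whole or in part, and the start itself could lie outside the region. These regions overlapped 86 windows of 79 genes. Long non-coding RNAs (lncRNAs) had 49 of the windows and protein-coding genes 37. The share of regions with a start window was 6.09% for distal regions with CTCF only, 10.3% with ETS1 only, 28.7% with both and 77.2% for bound regions at gene ends, a low share at distal regions being partly fixed by the distance rule. The 4 windows below are shown because they are starts of genes of T cell biology that the results return to. Ptprc and Gata3 follow from the naming rule, and Ms4a4b and Elf1 were chosen after their values were seen. Capitals mark matches on either strand to the fixed letters CCGGAA (ETS), TGTGGTT (RUNX) or TGANTCA (AP-1, N being any base). The window of Ptprc has no match to these letters. It does hold the shorter GGAA core of ETS sites, which was not searched for.
Ptprc, chr1:138175256-138175555 (minus strand): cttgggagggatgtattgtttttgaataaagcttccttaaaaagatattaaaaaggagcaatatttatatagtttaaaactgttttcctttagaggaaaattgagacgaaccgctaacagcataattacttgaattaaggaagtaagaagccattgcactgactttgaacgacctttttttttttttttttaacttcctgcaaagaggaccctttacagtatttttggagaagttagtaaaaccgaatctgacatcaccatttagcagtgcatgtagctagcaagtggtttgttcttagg
Gata3, chr2:9878551-9878850 (minus strand): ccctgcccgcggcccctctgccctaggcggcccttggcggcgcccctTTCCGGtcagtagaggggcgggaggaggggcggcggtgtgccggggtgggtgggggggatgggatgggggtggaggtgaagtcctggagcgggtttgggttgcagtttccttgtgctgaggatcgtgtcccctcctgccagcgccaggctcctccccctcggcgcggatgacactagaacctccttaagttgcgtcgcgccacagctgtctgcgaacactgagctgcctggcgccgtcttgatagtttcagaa
Ms4a4b, chr19:11443308-11443607 (plus strand): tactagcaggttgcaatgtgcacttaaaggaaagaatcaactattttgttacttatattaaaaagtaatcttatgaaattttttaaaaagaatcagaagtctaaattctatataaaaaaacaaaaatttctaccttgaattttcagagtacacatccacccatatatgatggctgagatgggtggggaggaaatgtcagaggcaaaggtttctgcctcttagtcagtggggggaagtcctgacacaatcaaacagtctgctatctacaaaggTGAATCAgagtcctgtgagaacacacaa
Elf1, chr14:79515424-79515723 (plus strand): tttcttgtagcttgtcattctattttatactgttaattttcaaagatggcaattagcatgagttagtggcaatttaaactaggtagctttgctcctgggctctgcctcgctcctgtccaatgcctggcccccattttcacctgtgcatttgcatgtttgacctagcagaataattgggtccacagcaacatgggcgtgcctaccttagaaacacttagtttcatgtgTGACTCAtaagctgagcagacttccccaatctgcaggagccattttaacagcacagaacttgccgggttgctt
Ptprc encodes the phosphatase CD45, which sets the activity of Src kinases at the T cell receptor. Gata3 encodes the transcription factor that specifies Th2 cells, and its capitals, TTCCGG, are the ETS letters CCGGAA read on the other strand. Ms4a4b encodes a membrane protein of T cells and Elf1 an ETS-family factor. Both windows hold a match to the AP-1 letters TGANTCA.

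Motif letters were searched in all 86 windows, on both strands, and a match is a description of letters and not of binding. The ETS letters CCGGAA occurred in 11 windows (12.8%), against 22.7% of windows in distal regions with ETS1 only, 24.6% with ETS1 and CTCF, and 14.9% of all 32817 RefSeq windows. KLF and SP letters, CCCGCCC, occurred in 10 windows (11.6%), against 27.3%, 45.6% and 25.6%. RUNX letters, TGTGGTT, were found in 10 windows (11.6%), against 6.82%, 3.35% and 5.27%, and AP-1 letters, TGANTCA, in 13 windows (15.1%), against 9.66%, 5.93% and 7.81%. TATA letters, TATAAA, were found in 12 windows (14.0%), against 5.68%, 6.03% and 13.6%. The 69 windows of distal regions with CTCF only held ETS letters in 10.1%, RUNX letters in 7.25% and AP-1 letters in 9 windows. They held KLF and SP letters in 30.4% and TATA letters in 2.90%. A low ETS share was thus not particular to the unbound distal regions. It was also not a mark of every unbound class, since at unbound gene ends 46 of 164 windows held ETS letters. Windows in no region called in all 4 libraries held ETS letters in 7.08%. None of these motifs contains another, and matches that overlap in position were counted for each motif. The GC content differed between the classes. Its median was 51.0% in the windows of the unbound distal regions, 57.0% with CTCF only, 55.2% with ETS1 only, 62.0% with both and 52.7% over all windows. The median number of CpG dinucleotides was 6, 11, 10, 21 and 7 in the same order. Windows of lncRNA genes made up 57.0%, 59.4%, 32.4%, 27.8% and 35.3%, again in that order. The part of base composition and of gene type in the motif shares was not tested. With 86 windows 1 window moves a share by more than 1 percentage point, and some windows overlap others of the same gene, as at Ptprc and Gm36199.

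**Figure D1:**
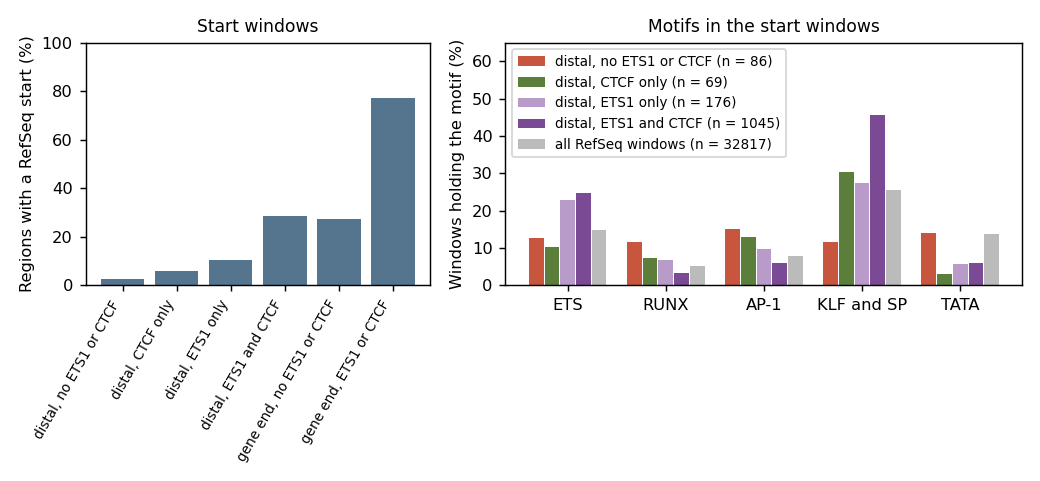
RefSeq start windows in the H3K27ac regions. Left, bars give the percentage of regions of each class that overlap a start window in whole or in part, from 2.55% in the distal regions without ETS1 or CTCF to 77.2% at bound gene ends. Right, bars give the percentage of start windows that hold each motif. The unbound distal regions had ETS letters in 12.8% of windows, above the 10.1% of distal regions with CTCF only and below the 22.7% with ETS1 only, and AP-1 letters in 13 of 86 windows, beside 9 of 69 with CTCF only.

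MicroRNA genes were the other readable sequence. Whole RefSeq hairpins lay in 17 regions (0.556%), 20 hairpins in all, against 0.568% of distal regions with ETS1 and CTCF and 0.670% with ETS1 only, so hairpins were about as frequent as elsewhere. Of these hairpins, 4 loci with well-studied microRNAs are shown, chosen after their values were seen, with the seed (bases 2 to 8) in capitals. No 2 of the 6 mature sequences share a seed.
mmu-miR-21a-5p: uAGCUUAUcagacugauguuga
mmu-miR-23a-3p: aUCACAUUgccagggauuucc
mmu-miR-27a-3p: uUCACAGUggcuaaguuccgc
mmu-miR-24-3p: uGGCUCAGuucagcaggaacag
mmu-miR-33-5p: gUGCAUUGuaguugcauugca
mmu-miR-199a-5p: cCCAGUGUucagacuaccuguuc
The hairpin of miR-21a, a microRNA induced on T cell activation, lay on the minus strand inside the region chr11:86580232-86594898. The midpoint of this region lay in Vmp1, the gene of a membrane protein of autophagy. The region also covered a protein-coding gene end, 3707 bp from its midpoint. That region covered 9109 and 12181 bp of H3K27ac in WT and 14646 and 14410 bp in KO. Both KO libraries were longer than both WT libraries, although the WT libraries differed from each other by more than the gap between the genotypes. The cluster of miR-23a, miR-27a and miR-24-2 lay in 1 region beside Zswim4, chr8:84207682-84209298, with 1478 and 1493 bp in WT against 1609 and 1465 bp in KO. There the genotypes overlapped. The region in Srebf2, whose protein drives cholesterol synthesis and whose locus holds miR-33, covered 902 and 406 bp in WT against 1627 and 1826 bp in KO. The region of miR-199a-1 in Dnm2, the gene of a dynamin GTPase, covered 2278 and 2582 bp in WT against 3170 and 3478 bp in KO, again without overlap.

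The regions were next compared by the length of DNA under H3K27ac peaks inside them, called the covered length here, since the lists give positions but no counts. Acetylated DNA in the 3059 regions was longer in KO. The WT libraries covered 3017 and 2954 kb and the KO libraries 4153 and 4169 kb, or 2985 ± 44.9 kb and 4161 ± 11.3 kb (SD, n = 2 libraries each), a log2 difference of 0.48 and a ratio of 1.39. Both KO libraries lay above both WT libraries. The WT libraries repeat 1 biological sample, so their spread is technical and the comparison sets 2 KO samples against 1 WT sample. An exact two-sided permutation test over the 4 libraries gave p = 0.333, the smallest p that 2 against 2 allows. All H3K27ac peaks of the lists together covered 21.5 Mb in WT and 28.3 Mb in KO on average, a ratio of 1.31, and the 16043 regions called in all 4 libraries had a ratio of 1.23. The KO lists also held more peaks, as given above. Where equally many top-scored peaks were taken from each library, the log2 difference was 0.42.

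Regions with ETS1 differed less between the genotypes than the regions without. Distal regions with a WT ETS1 peak covered 6619 and 6517 kb in the WT libraries and 7744 and 7713 kb in KO, a ratio of 1.18. Set against them within each library, the covered length of the unbound regions was 45.6% and 45.3% of theirs in WT and 53.6% and 54.1% in KO. This ratio of ratios was 1.18, a log2 difference of 0.24, with an exact two-sided permutation p = 0.333, again the smallest possible. Unbound regions at gene ends, 494 in number, had a ratio of 1.38, bound regions at gene ends 1.19, distal regions with CTCF only 1.31, with ETS1 only 1.22 and with both 1.15. Against distal regions with CTCF only, the log2 difference was 0.08. When only peaks with a −log10 q of at least 5 were used, the difference from regions with ETS1 turned to a log2 value of -0.048, over 392 regions of which 23 belong to the 3059, so the direction did not hold among strong peaks alone.

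**Figure D2:**
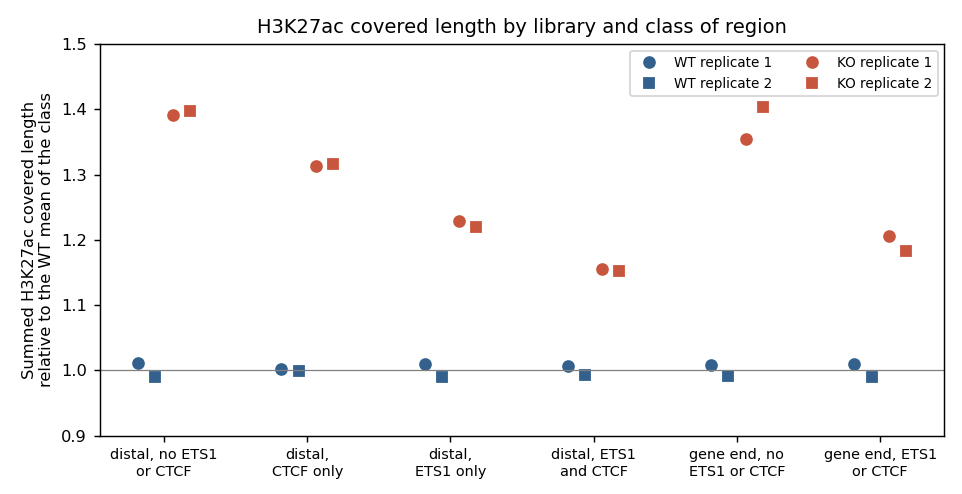
Summed H3K27ac covered length of each library, divided by the mean of the WT libraries, for each class of regions called in all 4 libraries. Each point is a library (blue WT, red KO, circles replicate 1, squares replicate 2); the KO points lie highest for the unbound distal and unbound gene-end classes (ratios of 1.39 and 1.38) and lowest for distal regions with ETS1 and CTCF (1.15).

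The unbound regions were shorter and weaker, by the authors' own values, than distal regions with ETS1. Their median covered length was 683 and 660 bp in WT and 929 and 983 bp in KO. For distal regions with ETS1 it was 1014.5 and 991 bp in WT and 1161.5 and 1166 bp in KO. Distal regions with CTCF only were shorter still, at 590 and 603 bp in WT and 779 and 776 bp in KO. Ranked within each list by the authors' fold enrichment (0% the best), the best peak of a region stood at a median of 53.3% and 53.1% in WT and 49.6% and 48.5% in KO, against 33.6%, 33.8%, 32.2% and 31.3% with ETS1. In the same order it was 46.5%, 49.3%, 45.0% and 43.3% with CTCF only. Unbound regions at gene ends stood at 58.2%, 57.3%, 51.6% and 50.2%, so a low rank was not particular to the unbound distal regions. A −log10 q of 5 in all 4 libraries was reached by 23 regions (0.752%), against 598 of the 3986 distal regions with ETS1. The replicates also agreed less in the unbound distal regions than with ETS1. The median absolute log2 difference between the WT libraries of a region was 0.44, and 0.38 between the KO libraries, against 0.22 and 0.21 with ETS1. These values were 0.30 and 0.29 with CTCF only, and nearly as high as here, 0.40 and 0.35, in unbound regions at gene ends. The median unbound distal region had a log2 KO over WT value of 0.41, with quartiles at -0.01 and 0.91.

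At similar length the contrast with ETS1 regions was small in the shortest regions and larger in the others. Up to a mean covered length of 500 bp, the KO over WT ratio was 1.18 over 723 unbound regions and 1.16 over 723 regions with ETS1. Between 500 and 1000 bp it was 1.37 (1116 regions) against 1.13 (1118 regions). Between 1000 and 2000 bp it was 1.46 (800 regions) against 1.17 (1129 regions), and above 2000 bp 1.40 (420 regions) against 1.19 (1016 regions). Inside genes the ratios were 1.40 and 1.17, and between genes 1.37 and 1.19. These are sums over regions split by the same lengths they are compared on, so no test was made.

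Counted region by region, both KO libraries were longer than both WT libraries in 1398 regions (45.7%), where the share was 48.5% of all regions called in all 4 libraries and 44.7% of the distal ones. Both WT libraries were longer in 276 regions (9.02%), against 7.89% of all and 11.1% of distal regions. Both counts lie near the background, so they tell nothing particular of these regions. The shorter KO library was at least 1.5 times the longer WT library in 530 regions (17.3%). This share was 9.84% of all, 12.8% of distal and 9.26% of distal regions with ETS1. It was 15.2% in unbound regions at gene ends, so a raised share was not particular to distal regions. Among distal regions it was 12.96% with CTCF only, 12.7% with ETS1 only and 7.53% with both. The opposite held for 74 regions (2.42%), against 1.5% of all and 2.53% of distal regions. The limit of 1.5 was set after the data were seen. The part of short length and of replicate spread in these shares was not tested. The counts of 1398 and 276 rest on both libraries of each genotype. With WT replicate 1, WT replicate 2, KO replicate 1 or KO replicate 2 left out, 2206, 2197, 2108 and 1930 regions were longer in KO and 637, 669, 689 and 674 in WT. The rule then asked for 3 libraries and found more regions, and a single library on 1 side makes separation easier.

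**Figure D3:**
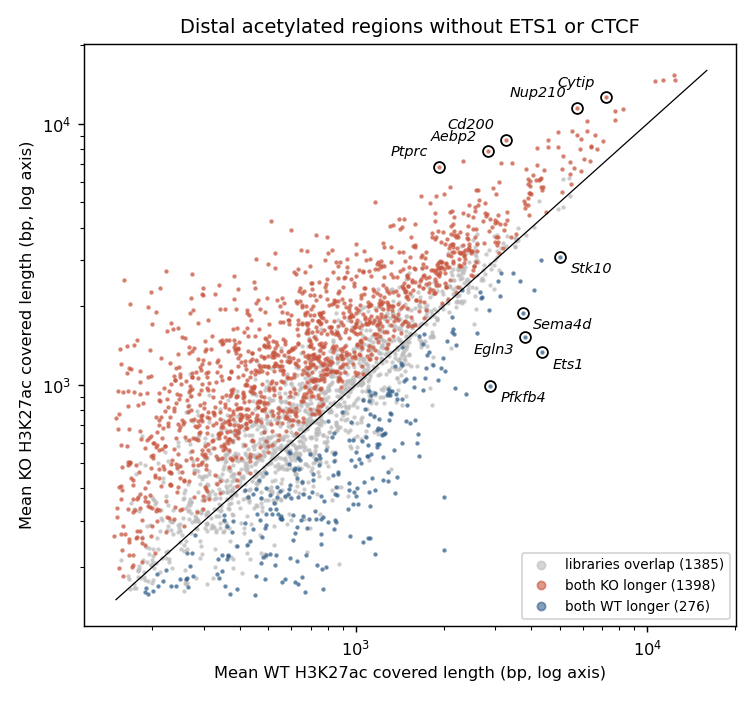
Mean H3K27ac covered length of each of the 3059 regions in WT (x axis) and KO (y axis), both on log axes in bp, with the line of equal length. Red points are the 1398 regions with both KO libraries longer, blue points the 276 with both WT libraries longer, grey points the 1385 others; circles mark the 5 named regions with the greatest difference in each direction, Ptprc with 6864 and 6790 bp in KO far above the line and Ets1 with 1171 and 1489 bp far below it.

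The regions with the greatest excess of KO over WT length lay in genes of different functions. In Ptprc, the region chr1:138132762-138141180 covered 1553 and 2289 bp in WT against 6864 and 6790 bp in KO, a ratio of 3.55. In Cd200, whose product is the ligand of an inhibitory receptor, WT had 2875 and 3651 bp and KO 9481 and 7916 bp. In Nup210, encoding a nuclear pore glycoprotein, WT had 6414 and 5045 bp and KO 12461 and 10470 bp. Cytip, the gene of a cytohesin-binding protein of lymphocytes, had 7416 and 6968 bp in WT against 13630 and 11576 bp in KO, and Aebp2, a cofactor of Polycomb repressive complex PRC2, had 3429 and 2228 bp in WT against 8946 and 6725 bp in KO. These 5, like the 5 longer in WT below, were picked among regions whose WT and KO libraries did not overlap. Their separation is thus the choice and not a result. Cytip and Cd200 also had short KO peaks of CTCF (191 and 275 bp in replicate 1), and Cytip 1 of ETS1 (183 bp in replicate 1).

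Among regions longer in WT, the difference was greatest in Ets1 itself. The region chr9:32734843-32739326, inside Ets1 and 20736 bp from its nearest gene end, covered 4467 and 4250 bp in WT against 1171 and 1489 bp in KO, a ratio of 0.31. Its best peak ranked at 40.1% and 37.1% of the WT lists and at 92.2% and 90.4% of the KO lists. Another region named for Ets1, chr9:33059721-33060697, lay 302389 bp from the gene beyond the stretch without KO peaks, and had 974 and 972 bp in WT against 254 and 441 bp in KO. Both Ets1 regions were therefore shorter in both KO libraries, on either side of the stretch. In Pfkfb4, the gene of an enzyme that sets glycolytic flux, WT had 3054 and 2709 bp and KO 893 and 1089 bp, and the best peak ranked at 4.36% and 9.11% in WT and at 48.2% and 56.4% in KO. Sema4d, encoding the semaphorin CD100 of T cells, had 3669 and 3787 bp in WT against 1712 and 2045 bp in KO. Stk10, a lymphocyte kinase gene, had 5269 and 4736 bp in WT against 3183 and 2973 bp in KO, and 997 bp under an ETS1 peak of KO replicate 1. The region nearest to Egln3, a prolyl hydroxylase gene of oxygen sensing, lay 99215 bp away and had 3107 and 4503 bp in WT against 1849 and 1187 bp in KO.

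The longest regions were long in every library. In Bach2, whose product represses effector genes and keeps T cells in a naive or memory state, the region chr4:32253568-32269398 covered 12733 and 12048 bp in WT against 15827 and 14998 bp in KO. Gpi1, a glycolytic enzyme gene, had 13135 and 11819 bp in WT against 15510 and 13857 bp in KO, and Wdr1, a gene of actin turnover, had 11584 and 11067 bp in WT against 14609 and 14746 bp in KO. With Vmp1 and Cytip above, all 5 were longer in both KO libraries. A different set ranked best by the authors' fold. Among them were regions named for Msl2, Slc17a6, Actr3 and Smarcc1. Of these, the region in Actr3, a subunit gene of the actin-nucleating Arp2/3 complex, had 310 and 312 bp in WT against 1090 and 810 bp in KO, whereas the libraries of the region in Smarcc1, a chromatin remodelling subunit gene, overlapped with 397 and 380 bp in WT against 362 and 1471 bp in KO. The 5 longest regions ranked between 10.3% and 45.2% by fold in the 4 libraries.

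Most of the regions lay in gene bodies. Of the 3059, 2449 (80.1%) had their midpoint inside a protein-coding gene, against 68.6% of distal regions with ETS1. The share was 72.6% with ETS1 only, 66.6% with both and 59.9% with CTCF only. It was 82.2% in unbound regions at gene ends and 78.8% of all regions called in all 4 libraries. Whether that was an exon or an intron is not given in the table used. The median distance to the nearest gene end was 14149 bp, 454 regions (14.8%) lay more than 50 kb away, and the farthest lay 846974 bp away. The gene a region was named for had an acetylated end, that is an H3K27ac region called in all 4 libraries within 2 kb, in 2456 cases (80.3%). This share was 63.4% for distal regions with ETS1, namely 73.4% with ETS1 only and 58.3% with both, and 70.5% with CTCF only. Of all 21887 protein-coding genes 41.0% had such an end. That is a share of genes, whereas the others are shares of regions, in which a gene can count more than once. Every chromosome but Y held some of the 3059, with 266 on chromosome 2, 263 on 11, 251 on 5 and 40 on X. The regions made up between 29.3% of the distal regions of a chromosome, on chromosome 3, and 44.1%, on chromosome 18.

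Many lay close to bound regions without touching them. The median gap to a WT ETS1 peak was 7807 bp and to a CTCF peak 9017 bp. The gap to ETS1 was 7396.5 bp for unbound regions at gene ends and 9057 bp for distal regions with CTCF only. Within 10 kb of an acetylated region that overlapped an ETS1 peak lay 1528 regions (49.95%), against 47.2% of unbound regions at gene ends and 37.3% of distal regions with CTCF only. This closeness was thus not particular to the unbound distal regions. The nearest peak of either protein was within 1 kb of 207 regions (6.77%) and within 100 bp of 7. At the limit, the regions in Ccdc12, Gm11541 and Ninj2 missed a WT peak by 5, 7 and 25 bp, and those in Dnmt1, Tex13d and Tmem131 were left out for overlaps of 19, 21 and 22 bp. Among the 4889 bound distal regions, 20 (0.409%) overlapped by under 100 bp. On the distance limit, Trim8, Madd and Spen were kept at 2005, 2009 and 2012 bp, and Mybbp1a, Fbxw17 and Ttc9c were left out at 2000, 1997 and 1996 bp.

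Joined where neighbours lay within 10 kb, the regions formed 2201 groups. Lone regions numbered 1672 (54.7%), pairs 340, and groups of 3 or more 189, which held 707 regions. The largest groups had 8 regions. The group in Bach2, chr4:32253568-32306865, covered 21365 and 21281 bp in WT against 27100 and 25603 bp in KO. The group before Cblb, whose ubiquitin ligase restrains T cell activation, spanned chr16:51680437-51719903 and covered 10483 and 7588 bp in WT against 10936 and 9918 bp in KO, where the genotypes overlapped. Groups of 7 regions included Ptprc, with 12549 and 10938 bp in WT against 21798 and 19874 bp in KO, Nfkb1, with 10835 and 12145 bp in the WT libraries and 17539 and 18547 bp in KO, and Iars, an aminoacyl-tRNA synthetase gene, with 5196 and 6095 bp in the WT libraries and 14043 and 13881 bp in KO. The other groups of 7 were named for Prrc2b, Larp1 and Capzb. Prrc2b had 13600 and 9809 bp in WT against 17794 and 17320 bp in KO. Larp1 had 11038 and 8719 bp in WT against 11448 and 12667 bp in KO, and Capzb 9390 and 8299 bp against 10102 and 14125 bp. In each group of 7 both KO libraries were longer than both WT libraries.

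The regions took the names of 1661 genes, 1047 of which (63.0%) had a single region, while 100 genes had 5 or more and held 726 regions. The 10 genes with the most regions held 151. Cblb led with 22, 9 of them in the gene, covering 26.1 and 21.7 kb in the WT libraries and 28.99 and 26.98 kb in KO, the smallest relative difference of the 10. Of the protein kinase C genes, Prkch (eta isoform) came next with 19 regions with 25.4 and 24.7 kb in the WT libraries and 35.2 and 35.2 kb in KO, and Prkcq, the theta isoform that relays T cell receptor signals, had 12 with 16.3 and 15.5 kb in the WT libraries and 24.5 and 22.9 kb in KO. Bach2 had 18 regions, all in the gene, with 34.8 and 35.9 kb in the WT libraries and 46.0 and 44.3 kb in KO. Of these, 10 were longer in both KO libraries and 1 in both WT libraries, against 45.7% and 9.02% of all 3059 regions. Satb1, a chromatin organiser of developing and resting T cells, also had 18, 5 in the gene, with 21.1 and 18.2 kb in the WT libraries and 33.2 and 31.5 kb in KO. Of those, 12 were longer in KO and 2 in WT.

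Myc, the growth regulator known for far-off enhancers, had 16 regions, none in the gene, reaching to the 846974 bp given above. These regions covered 17.8 and 13.4 kb in the WT libraries and 31.7 and 25.3 kb in KO, and 13 of 16 were longer in both KO libraries, 0 in both WT libraries, where the share over all 3059 regions was 45.7% and 9.02%. Nfkb1, encoding the p50 subunit of NF-kappaB, had 11 with 19.7 and 19.02 kb in the WT libraries and 29.9 and 30.1 kb in KO, 9 of them longer in KO. Nup210 had 11 with 19.1 and 14.7 kb in the WT libraries and 30.4 and 29.3 kb in KO. Gramd1b, a sterol transfer gene, had 13 with 12.3 and 16.9 kb in the WT libraries and 23.2 and 26.6 kb in KO. Foxp1, a gene of T cell quiescence, had 11 with 10.9 and 9.21 kb in the WT libraries and 13.1 and 12.1 kb in KO. In all 10 genes both KO sums were above both WT sums, as they were for the 3059 regions together.

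**Figure D4:**
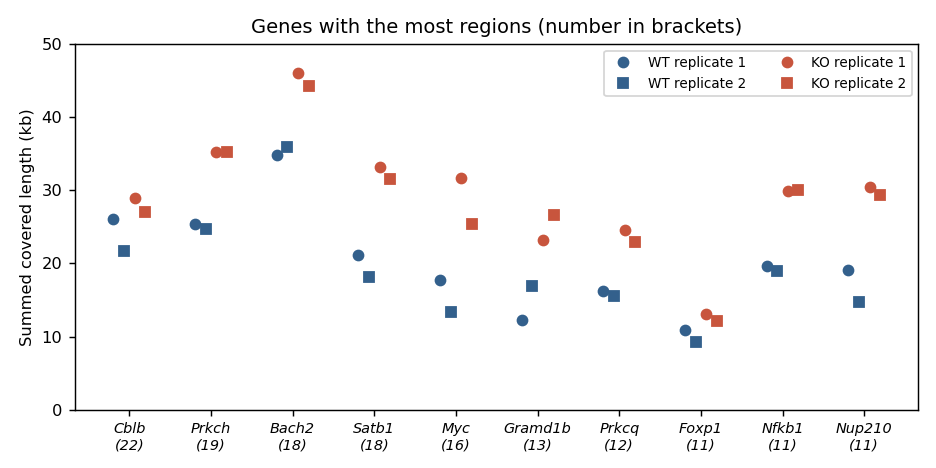
Summed H3K27ac covered length (kb) of the unbound distal regions named for the 10 genes with the most of them, number of regions in brackets. Each point is a library (blue WT, red KO); KO lies above WT at every gene, closest at Cblb (21.7 to 28.99 kb) and farthest apart in ratio at Myc (13.4 and 17.8 kb against 25.3 and 31.7 kb).

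Gene lists of T cell types were then read against all distal regions, of which 38.5% were unbound, and against all 3059 unbound regions, of which 45.7% were longer in both KO libraries and 9.02% in both WT libraries. No list was tested against these shares. For the T cell list, 13 of 29 distal regions (44.8%) were unbound, of which 9 were longer in both KO libraries and 0 in both WT libraries, with a sum ratio of 1.63. The median region of the list had a log2 KO over WT value of 0.53, against 0.41 over all 3059. The 6 regions of Cd28, the costimulatory receptor, covered 6.90 and 6.77 kb in the WT libraries and 13.3 and 11.6 kb in KO. The 5 of Cd2, an adhesion receptor, covered 5.89 and 6.49 kb in the WT libraries and 8.73 and 8.50 kb in KO. The single region of Zap70, the kinase recruited to the receptor, had 1513 and 1120 bp in WT against 2429 and 2868 bp in KO, and that of Thy1 had 0.477 and 0.544 kb in the WT libraries and 0.494 and 0.543 kb in KO, where the libraries overlapped. The list of naive and memory T cell genes had 42 of 77 (54.5%), with 28 longer in KO and 3 in WT, sums of 61.1 and 58.9 kb (WT) and 88.1 and 84.0 kb (KO), a ratio of 1.43 and a median log2 value of 0.60. Besides Bach2 and Satb1, which held most of the 42, Lef1, a Wnt pathway factor of naive T cells, had 2 regions with 1.08 and 0.985 kb in the WT libraries and 2.41 and 2.65 kb in KO. Ccr7, Il7r and S1pr1, genes of lymph node homing, interleukin-7 survival signals and lymph node exit, had 1 region each, all 3 longer in both KO libraries.

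Genes that define Th1 cells had few of the regions, and those that separated the genotypes were longer in WT. Of 23 distal regions of the Th1 list 7 (30.4%) were unbound, with 0 longer in both KO libraries and 3 in both WT libraries, a sum ratio of 0.96 and a median log2 value of -0.34. The region nearest to Ifng, the interferon-gamma gene, chr10:118405852-118407355, covered 1504 and 735 bp in WT against 349 and 170 bp in KO. The region of Tbx21, whose product T-bet directs the Th1 programme, had 434 and 304 bp in WT against 150 and 165 bp in KO. Both regions were longer in both WT libraries. Runx3, a partner of T-bet, had 2 regions with 1.42 and 1.95 kb in the WT libraries and 1.66 and 0.864 kb in KO, 1 of them longer in WT. Stat4, the interleukin-12 signal transducer, had 2 with 1.05 and 0.908 kb in the WT libraries and 1.08 and 1.84 kb in KO. Its sums were higher in both KO libraries, though neither region alone separated the genotypes. Il12rb2, the receptor subunit gene, had 1 with 1.29 and 0.493 kb in the WT libraries and 2.70 and 0.726 kb in KO, where the libraries overlapped. The counts of the Th1 list are small, and the difference between lists was not tested.

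Other helper lineages had few regions. Gata3 had 1, chr2:9876966-9878871, which holds the start window printed above. It covered 176 and 150 bp in WT against 1865 and 952 bp in KO, and it overlapped KO peaks of CTCF (215 and 242 bp) and of ETS1 replicate 1 (140 bp). Il23r, the interleukin-23 receptor gene of Th17 cells, had 2 with 2.02 and 1.61 kb in the WT libraries and 3.51 and 3.17 kb in KO. Ctla4, the inhibitory receptor gene of regulatory and activated T cells, had 3 with 3.88 and 4.04 kb in the WT libraries and 5.21 and 6.47 kb in KO. All 3 genes had longer sums in both KO libraries.

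Among costimulation and checkpoint genes, 13 of 21 distal regions (61.9%) were unbound, with 7 longer in KO, a share near that of all unbound regions, 1 in WT, a ratio of 1.93 and a median log2 value of 0.76. Il2ra, the alpha chain of the interleukin-2 receptor, held 7, with 8.47 and 7.90 kb in the WT libraries and 19.6 and 17.4 kb in KO, 5 of them longer in both KO libraries. Pdcd1, the PD-1 gene, had 2 with 1.44 and 1.495 kb in the WT libraries and 2.86 and 3.67 kb in KO. Cd27, a TNF-family receptor gene, was shorter in KO, with 1.21 and 1.32 kb in the WT libraries and 0.512 and 0.801 kb in KO over 2 regions, and the 2 of Icos overlapped, with 1.46 and 1.08 kb in the WT libraries and 0.836 and 1.27 kb in KO. The list's ratio thus rests mostly on Il2ra.

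T cell transcription factor genes were mixed. Of 67 distal regions 30 were unbound, with 12 longer in KO, 4 in WT, a ratio of 1.19 and a median log2 value of 0.15. Bcl11b, a T cell commitment factor, had 4 with 2.99 and 2.83 kb in the WT libraries and 5.66 and 6.75 kb in KO. Nfatc1, the calcium-regulated factor, had 8 with 12.6 and 12.9 kb in the WT libraries and 15.7 and 18.6 kb in KO, and Irf4, induced by receptor signals, had 3 regions, all longer in both KO libraries, the longest of which covered 1182 and 932 bp in WT against 2820 and 2596 bp in KO. Fli1, the ETS-family neighbour of Ets1, had 4 with 4.52 and 5.07 kb in the WT libraries and 4.74 and 4.65 kb in KO, so its sum did not separate the genotypes. Runx1, Myb and Prdm1 had 2 regions each and overlapping sums. The 2 regions of Ets1 were the only ones of this list, besides 1 each of Nfatc1 and Runx1, to be longer in both WT libraries.

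The other regions with a start window printed above were longer than the median region in every library. The region over the Ptprc start, chr1:138170194-138176854, covered 4788 and 3852 bp in WT against 6661 and 5673 bp in KO. That region included a protein-coding gene end, 2232 bp from its midpoint. The region of Ms4a4b covered 2379 and 2289 bp in WT against 7688 and 6760 bp in KO, and that of Elf1 3327 and 3251 bp in WT against 4605 and 3954 bp in KO. In all 3 both KO libraries were longer. The start windows printed thus lay in regions that differed between the genotypes by different amounts, the most at Gata3 and Ms4a4b.

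Ends of non-coding genes, which the rule did not consider, lay within 2 kb of the midpoint of 209 regions (6.83%), against 573 (14.4%) of distal regions with ETS1. They were lncRNA genes at 143 regions, microRNA genes at 34, with 2 regions near both, and genes of other types at 34. With CTCF only the share near any non-coding end was 10.7%, with ETS1 only 9.46% and with both 16.9%. The share with a microRNA end was 1.11%, against 0.803% with ETS1 and 1.11% of all regions called in all 4 libraries. It was thus not raised. The share with an lncRNA end was 4.67%, against 12.8% with ETS1. For lncRNA ends it was 9.30% with CTCF only, 7.97% with ETS1 only and 15.3% with both. The 10 named by rank among those near a microRNA lay at Mir23a, Mir3572 in Cnot3, Mir6933 in Pgs1, Mir7053 in Pold1, Mir7075 in Terf2, Mir7082 in Raver1, Mir6911 in Dazap1, Mir33 in Srebf2, Mir6987 in Pcnx3 and Mir1930 in Ube2g2. Both KO libraries were longer in 7 of these 10, against 45.7% of all 3059 regions, and the libraries overlapped at Mir23a, in Terf2 (226 and 228 bp in WT, 474 and 215 bp in KO) and in Dazap1 (196 and 900 bp in WT, 755 and 994 bp in KO). In Cnot3, a deadenylase subunit gene, the region covered 915 and 1193 bp in WT against 2648 and 2783 bp in KO. In Pgs1, a phospholipid synthesis gene, it covered 2798 and 2757 bp in WT against 4378 and 5556 bp in KO, beside KO peaks of CTCF of 979 and 730 bp. In Ube2g2, a ubiquitin-conjugating enzyme gene, it covered 1203 and 802 bp in WT against 3271 and 1958 bp in KO.

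ETS1 and CTCF peaks of the KO libraries could still overlap the regions, because the rule looked at WT only. A peak of either protein in at least 1 of the 4 KO libraries was found in 1035 regions (33.8%), and 2024 had none. CTCF peaks lay in 439 (14.4%) and 333 (10.9%) regions in KO replicates 1 and 2 and in 233 (7.62%) in both. ETS1 peaks lay in 618 (20.2%) and 72 (2.35%) and in 20 in both, so the ETS1 count was nearly all from replicate 1, the library with 40705 peaks. Without that library 577 regions had a KO peak, and 249 had peaks in both KO libraries of an antibody. IgG peaks lay in 1 region in KO and 0 in WT.

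These KO peaks mostly ranked low in their lists, CTCF peaks more so than ETS1 peaks. The rule had removed every region with a WT peak. Sites with a peak in both genotypes could therefore not be among them, and low ranks were partly fixed in advance. CTCF peaks in the regions stood at a median rank of 88.2% and 84.9% by fold, with 0 in the top 10% of the list, and their median fold was 3.21 and 3.33 against 4.32 and 4.34 over the lists. ETS1 peaks stood at 62.6% and 64.1%, with a median fold of 3.26 and 3.55 against 3.44 and 3.77. Of these ETS1 peaks, 32.9% and 29.3% ranked above the middle of their list in replicates 1 and 2. KO peaks covered a median of 249, 218, 222.5 and 222 bp of a region in CTCF replicates 1 and 2 and ETS1 replicates 1 and 2. Of the regions with a CTCF peak in replicate 2, 70.0% had one in replicate 1, and 53.1% the other way round. For ETS1 these shares were 27.8% and 3.24%. In the same libraries CTCF peaks lay in 85.3% and 83.9% of the distal regions with CTCF only in WT, and ETS1 peaks in 49.3% and 19.9% of those with ETS1 only. Since the regions were chosen for lack of a WT peak, KO peaks could only add, and no comparison of KO with WT was made for these antibodies. The H3K27ac ratio was 1.37 in regions with a KO peak and 1.41 in regions without.

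**Figure D5:**
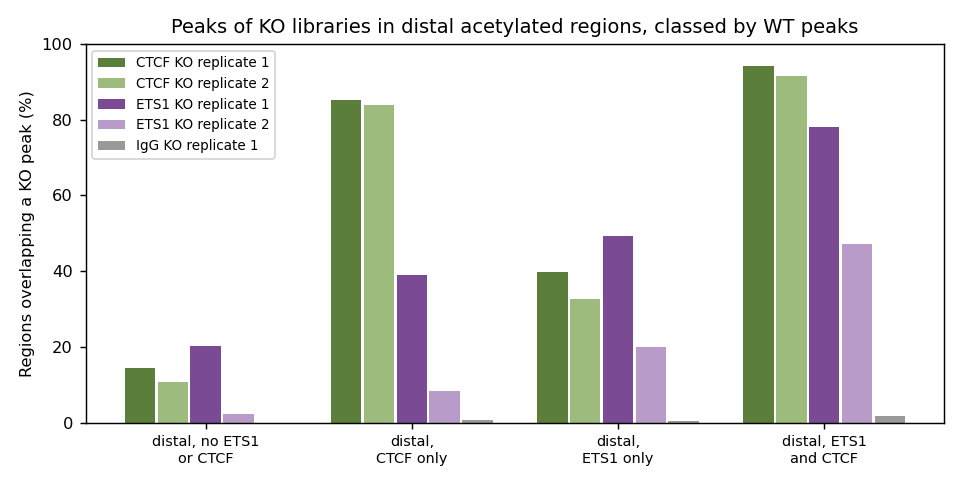
Percentage of distal regions called in all 4 H3K27ac libraries that overlapped a peak of each KO library (CTCF green, ETS1 purple, IgG grey), by class of WT peaks. Bars for the regions without WT ETS1 or CTCF are the lowest, with 14.4% and 10.9% for CTCF and 20.2% and 2.35% for ETS1, and the ETS1 replicates differ widely in every class.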

How the data were processed

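Peak lists of 14 CUT&RUN libraries were used as deposited. The submitters' processing notes name BWA and GRCm38; peak names have the form MACS2 writes, its options and any control were not given in the sources used here. For each peak the authors deposited a score, a fold ratio over background, a −log10 p and a −log10 q. The fold and q values only rank or filter peaks within a list. The lists hold no counts, so no interval from depth is given.

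Regions, gene ends (RefSeq, GRCm38.p6), overlaps and covered lengths were computed in Python 3.11.15 with pandas 2.3.3 and numpy 2.4.6. The selection was tested on simulated lists. Groups were compared with exact two-sided permutation tests over libraries. A region takes the name of the protein-coding gene it lies in or else the nearest. Named are the 5 longest, the 5 best ranked and the 10 genes with the most regions. Also named are the 5 with the greatest difference each way among regions whose WT and KO libraries did not overlap. Up to 4 genes a list (further ones were added after their values were seen), the 10 microRNA-near regions and those at the rule's limits were named too. The regions and gene lists were chosen with earlier results of these data known. The 1.5-fold limit and the length classes were set after the data were seen. The planned motif search of whole regions needs a genome and was run on RefSeq start windows only. A few regions that the naming rule picked are not reported here.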

Additional observations from a re-analysis of the deposited data

How the results depend on the processing

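The lists give no depth, WT replicates are technical, and 2 against 2 libraries cannot pass a threshold. The covered length difference kept its direction under every alternative run, with log2 values from 0.42 to 0.51 when 1 library was left out and from 0.39 to 0.50 otherwise. With the replicate number as a block (paired WT and KO libraries), the log2 difference was 0.48 with an exact sign-flip p = 0.5, the smallest that 2 pairs allow; the numbers share only a label. Relative to distal regions with ETS1 the log2 difference was 0.19 to 0.26 with 1 library left out, and it reversed to -0.048 with only peaks of −log10 q at least 5. That setting gave 392 regions, 202 longer in KO and 23 in WT. Leaving out regions with KO peaks of ETS1 or CTCF gave 2024 regions, 897 longer in KO. With 1 library left out the number of regions was 3211 to 3941, those longer in KO 1462 to 2206, those longer in WT 294 to 689, and those with a KO peak 577 to 1006; peaks in both KO libraries of an antibody, chosen after seeing the data like the single KO libraries left out, gave 249, and equal numbers of top-scored peaks 299. Non-coding ends within 5 kb were near 447 regions. The cause of these changes and of the reversal was not tested.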
